A study of Homo sapiens with 10 samples.

Results

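The genes flanking the β-globin locus on chromosome 11p15.4 were read in RNA-seq of K562 cells whose HS2 enhancer had been targeted by CRISPR repressors. A list of 45 genes around the β-globin cluster was taken by symbol, and all 45 were among the 20535 genes in the files. They were ordered by the distance of their starts from HS2. K562 is an erythroleukemia line that transcribes the embryonic and fetal β-like globin genes. There were 10 libraries in 5 groups of 2. The control group had the nontargeting sgGal4, and the others had the 4 HS2 sgRNAs together (sgHS2). By their labels, group K had dCas9-KRAB and group L had dCas9-LSD1 as single effectors. Of the groups labelled as dual effectors, LK (enCRISPRi-LK) joined dCas9-LSD1 with MCP-KRAB, and KL (enCRISPRi-KL) joined dCas9-KRAB with MCP-LSD1. KRAB recruits corepressors, LSD1 removes methyl groups from lysine 4 of histone H3, and MCP brings the other effector to hairpins in the sgRNA. Per the study's methods, the dCas9 fusion was induced by doxycycline and sorted populations were used, not clones. Which effector the sgGal4 libraries carried is not given in their labels.

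HS2 is a DNase I hypersensitive site of the locus control region (LCR), a group of enhancers upstream of the globin genes that activates them in erythroid cells. Its core holds tandem sites for AP-1 and NF-E2, factors that bind the same short motif. The LCR and the globin genes lie inside a long array of olfactory receptor genes, which code for odorant receptors of the nose and are silent in most other cells. TRIM genes, which code for RING-type ubiquitin ligases and include antiviral restriction factors, and genes used in most cells lie farther out. The question put to these genes was whether genes beyond the globin cluster changed when its enhancer was repressed.

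Distances were counted from the tandem core of HS2, found as a pair of TGAGTCA motifs on the same strand with any 3 bases between them. Both strands of the 30 kb upstream of HBE1 were searched, and the only match lay on the minus strand of chromosome 11 from 5301983 to 5301999 (hg19), 10.8 kb from the start of HBE1. Chromosome 11 held 5 matches in all, and 0.0917% of its 30 kb tiles held one. The core is shown with 22 bases on each side because every distance below starts at its centre. The capitals mark the tandem motif, and the sequence runs 5′ to 3′ on the minus strand at chr11:5301961-5302021.
HS2 core: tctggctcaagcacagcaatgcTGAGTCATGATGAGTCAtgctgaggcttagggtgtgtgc

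The nearest flanking genes on the far side of the LCR are olfactory receptor genes of family 51. The first 60 bases of the coding sequences of 3 of them are shown because these neighbours had very different levels. The capitals mark the start codon, the sequences run 5′ to 3′ on the strand of each gene, and the windows were OR51B2 at chr11:5345468-5345527 and OR51I1 at chr11:5462685-5462744 on the minus strand and OR51B6 at chr11:5372738-5372797 on the plus strand.
OR51B2: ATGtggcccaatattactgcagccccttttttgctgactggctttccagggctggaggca
OR51B6: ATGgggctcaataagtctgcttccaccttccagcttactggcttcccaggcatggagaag
OR51I1: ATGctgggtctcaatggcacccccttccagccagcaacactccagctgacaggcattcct

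Values are in TPM (transcripts per fixed total), which scale with transcript number and correct for length, so levels of different genes can be compared. The depth of each library is unknown, since TPM keeps no read totals. Of the 12 erythroid markers of K562 cells, 11 were above 1 TPM in every library, and 5 of 5 lymphoid and myeloid markers were at or under 1 TPM. The mitochondrial share of TPM ran from 39.9% to 53.6% and was highest in sgGal4 replicate 1. The genes of the effectors did not follow the labels in every group. KDM1A, which codes for LSD1, averaged 94.4 TPM in the libraries labelled L but 29.0 TPM in LK and 26.7 TPM in KL, against 29.4 TPM in sgGal4. ZNF10, the source of a KRAB domain in common use, averaged 1.43 TPM in sgGal4, 2.49 TPM in K, 132 TPM in L, 34.1 TPM in LK and 362 TPM in KL. Both genes were above sgGal4 in L, and neither was clearly so in K. The groups are therefore named as libraries labelled K, L, LK or KL. In bulk RNA, a lower level in each cell and fewer cells that express a gene cannot be told apart. The study describes the 2 libraries of a group as 2 experiments, without saying how the experiments were separated, so p-values measure the spread between those experiments.

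Of the 45 flanking genes, 22 reached a mean of 1 TPM over the 10 libraries and entered the test. The other 23 did not, and 11 of those were listed at 0 in all libraries. The genes that passed fell into blocks along the chromosome. All 5 genes more than 1 Mb from HS2 on the side of lower coordinates passed, as did 2 of 7 between 500 kb and 1 Mb and 0 of 5 within 500 kb. On the side of higher coordinates, 6 of 14 within 500 kb passed, 1 of 3 between 500 kb and 1 Mb and 8 of 11 beyond 1 Mb. TAF10, a subunit of the general transcription factor TFIID, was the highest with a mean of 138 TPM, and TRIM3 was the lowest of those tested with 2.69 TPM. OR51B4, an odorant receptor gene, stood sixth of the 22 with 37.6 TPM, and TPP1, just above it with 38.8 TPM, was the higher of the pair in 4 of 10 libraries.

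**Figure D1:**
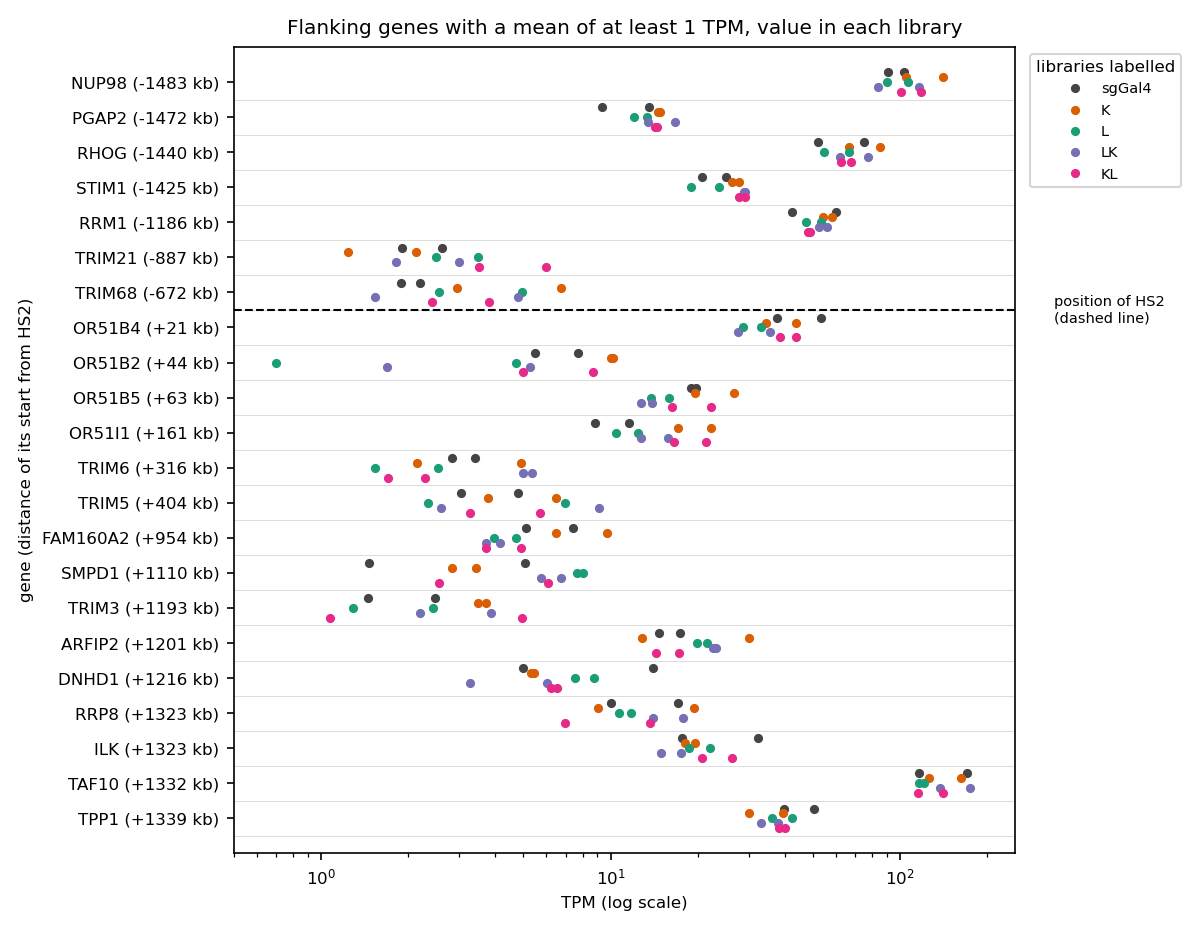
TPM (log scale) of the 22 flanking genes that passed the filter at 1 TPM, 1 point for each library, coloured by group and ordered by distance of the gene start from HS2 (kb, negative toward lower coordinates). The libraries of different groups overlap for most genes, and the 4 receptor genes that passed the filter reach 53.44 TPM.

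Within the list of flanking genes, the odorant receptors split by side and by strand. All 8 receptor genes of the list on the lower side, which begins beyond the globin genes, failed the filter. Their highest value was 0.22 TPM, and 5 of them were listed at 0 throughout. On the higher side, beyond the LCR, the 4 receptor genes of the list on the minus strand passed, which is also the strand of the globin genes. The 5 on the plus strand did not pass and reached at most 1.03 TPM, in OR51Q1. The strand split did not extend to receptor genes outside the list. Of these, OR52H1 and OR52N5 are also on the minus strand of the higher side, 267.8 kb and 502.6 kb from HS2. Both were listed at 0 in all libraries. OR51B6, which lies between OR51B5 and OR51I1 on the plus strand, was at 0 in 8 libraries, at 0.58 TPM in sgGal4 replicate 2 and at 0.75 TPM in LK replicate 2. Over the whole genome, 384 receptor genes were listed and 334 of them were at 0 in every library. The 4 highest means among the 384 belonged to OR51B4, OR51B5, OR51I1 and OR51B2, a ranking made after the values were seen. The next was OR2AT4 with 2.04 TPM.

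These 4 genes are short. OR51B4 (ENSG00000183251) spans 5322244 to 5323176, OR51B2 (ENSG00000279012) spans 5344589 to 5345527, OR51B5 (ENSG00000167355) spans 5363816 to 5364754 and OR51I1 (ENSG00000167359) spans 5461800 to 5462744 on chromosome 11 (hg19). The annotation also holds 7 long isoforms on the minus strand, 2 of HBE1, 1 of HBG2 and 4 of OR51B5, which start between 5526834 and 5526882, 224.8 kb from the HS2 core, and 3 of them run across it. OR51B4 lies within 3 of them and OR51I1 within 7, in introns. In OR51B5, 62.1% of the bases are exonic in a long isoform, so its TPM cannot be told apart from that of those isoforms. Windows of 75 bases of the 4 genes did not recur on chromosome 11, and other chromosomes were not searched. Whether reads were counted by strand is not stated.

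HBE1, the embryonic globin gene nearest to HS2, was taken as the reference gene. It stood at 1376.35 and 1619.66 TPM in sgGal4, at 695.48 and 758.76 TPM in K, at 1019.30 and 986.16 TPM in L, at 556.91 and 457.80 TPM in LK and at 384.41 and 361.31 TPM in KL. All 8 sgHS2 libraries were below both sgGal4 libraries. Its log2 fold change on the log2(TPM + 1) scale was -1.04 in K, -1.56 in LK and -2.00 in KL, which passed an adjusted p of 0.05 in limma, and -0.57 in L, which did not (adjusted p = 0.0567). Without a mean-variance trend the K call was lost (adjusted p = 0.111). The other β-like globin genes did not all move with HBE1. In K, the adult gene HBD rose by 1.04 (adjusted p = 0.0492), a call lost in 10 of 13 alternatives (adjusted p from 0.0333 to 0.184), and the fetal genes HBG1 and HBG2 had values of 0.28 and -0.32 that did not pass. HBG2 fell by 1.02 in LK and by 1.81 in KL, and HBG1 fell by 1.13 in KL. HBB passed in no comparison, but it was low, with at most 6.36 TPM and 0 in replicate 1 of LK and of KL. Its values were -1.30 in LK and -1.39 in KL (standard error 0.652), with the sign of HBE1. The HBG2 call was lost in 3 of 13 alternatives in LK and in 0 of 13 in KL, and the HBG1 call in 4 of 13. A difference from HBE1 is therefore a difference from that gene and not from the whole cluster.

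None of the flanking genes passed this test in any comparison with sgGal4. In K against sgGal4, 0 of 22 passed, where 1.62% of all 10127 genes tested did, and 1 of 22 had an unadjusted p under 0.05 against 15.6% of all genes. In L the count was 0 of 22 against 0.869%, with 3 of 22 at an unadjusted p under 0.05 against 12.8%. In LK it was 0 of 22 against 2%, with 0 of 22 at an unadjusted p under 0.05 against 14.2%. In KL it was 0 of 22 against 1.36%, with 1 of 22 against 14.7%. At these backgrounds, a count of 0 among 22 genes is near that of genes in general. For the mean of the 4 sgHS2 groups, the count was 0 of 22 against 3.26%, with 1 of 22 at an unadjusted p under 0.05 against 17.1%. The 4 comparisons share the same 2 sgGal4 libraries. In simulated data, the test of K against sgGal4 found 14% of genes changed by 1 on the log2 scale. It found 70% of those changed by 2, so a count of 0 does not show that the flanking genes were unchanged.

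The sizes of the changes were also near those of all genes. The median log2 fold change of the 22 genes was 0.23 in K (all genes 0.06), -0.06 in L (all genes 0.00), 0.14 in LK (all genes 0.03) and -0.00 in KL (all genes 0.05). The median size without regard to sign was 0.30, 0.22, 0.41 and 0.23 for K, L, LK and KL, and 0.32, 0.29, 0.30 and 0.30 over all genes. Single genes ranged from -1.27 to 1.20. The median standard error of the 22 genes was 0.32 in each comparison with sgGal4, so for the typical gene the 95% interval was wider than the median size of the change.

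**Figure D2:**
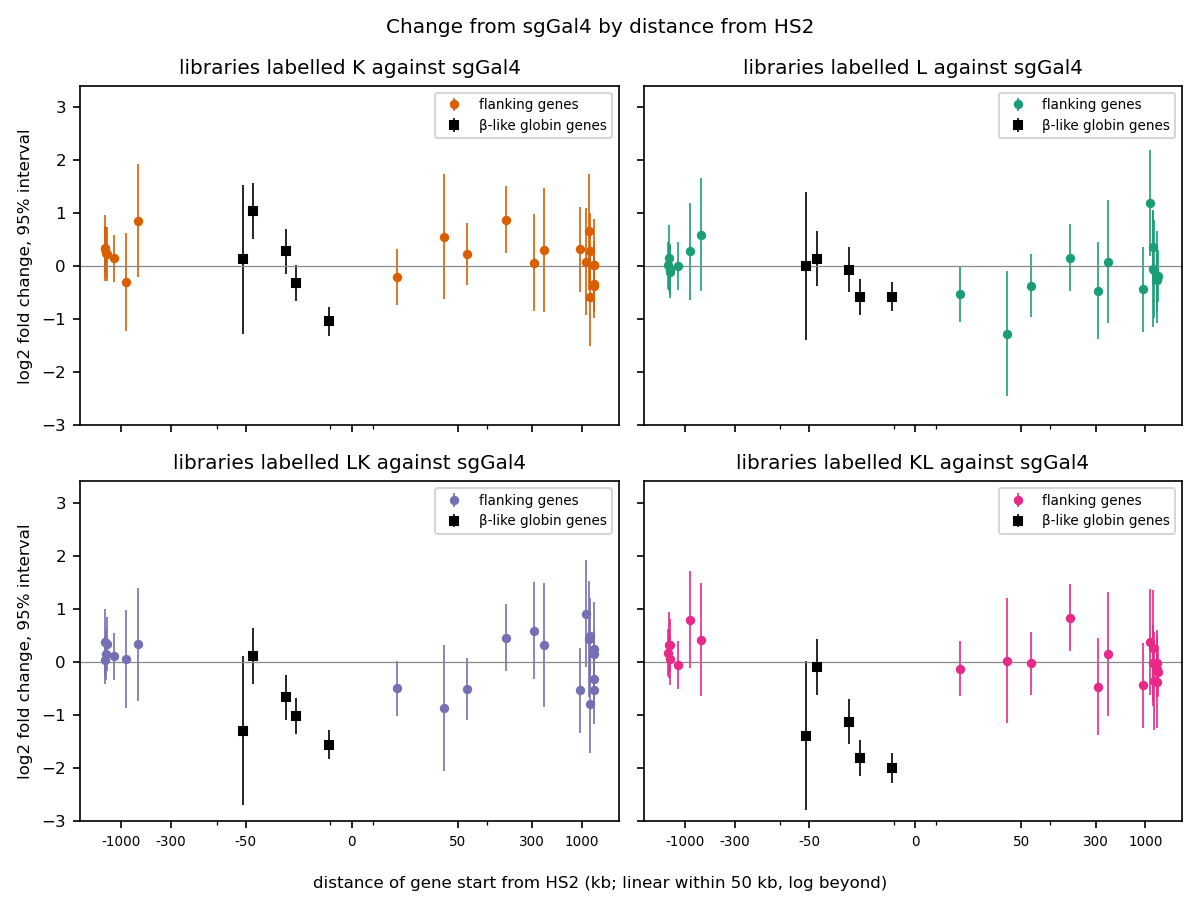
Log2 fold change against sgGal4 on the log2(TPM + 1) scale with its 95% interval (2 libraries against 2, limma), by distance of the gene start from HS2, for the 22 flanking genes (coloured circles) and the 5 β-like globin genes (black squares). In LK and KL the globin gene nearest to HS2 lies at -1.56 and -2.00, while the receptor genes on the other side of HS2 lie between -0.87 and 0.83.

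Distance from HS2 did not order the signed changes, while in L and LK the nearer genes had the larger sizes. Across the 22 genes, Spearman's correlation between distance and log2 fold change was -0.14 in K, 0.20 in L, 0.06 in LK and -0.01 in KL. Between distance and the size of the change it was -0.02, -0.59, -0.47 and -0.07. Genes near HS2 were also expressed at a lower level, with a correlation of 0.49 between distance and level. Level itself had a correlation with the size of the change of -0.27 in K, -0.33 in L, -0.39 in LK and -0.53 in KL. These genes share their libraries and are not independent, so no p is given.

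OR51B4 is the flanking gene nearest to HS2, with its start 21.2 kb away. It stood at 37.61 and 53.44 TPM in sgGal4, at 43.81 and 34.51 TPM in K, at 33.08 and 28.58 TPM in L, at 35.57 and 27.64 TPM in LK and at 43.70 and 38.44 TPM in KL. The L and LK libraries lay below both sgGal4 libraries, while K and KL overlapped them. With 2 libraries a group, such separation often arises without a change, for this gene and for those below. Its share over all genes was not counted. The log2 fold change was -0.53 in L (standard error 0.244, adjusted p = 0.386 in limma) and -0.50 in LK (adjusted p = 0.374). In KL, where HBE1 was lowest, it was -0.13 (95% interval -0.65 to 0.40, adjusted p = 0.871).

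OR51B2, whose start is 43.5 kb from HS2, had 7.74 and 5.46 TPM in sgGal4, 10.19 and 10.02 TPM in K, 4.72 and 0.70 TPM in L, 5.26 and 1.69 TPM in LK and 8.69 and 4.97 TPM in KL. It varied most among the 22 genes, with a coefficient of variation of 54.4% over the 10 libraries. The log2 fold change in L was -1.27 (95% interval -2.45 to -0.09, adjusted p = 0.348 in limma) and rested on L replicate 2, since without it the value was -0.39, and without L replicate 1 it was -2.14. Between K and L, OR51B2 differed by 1.83 (95% interval 0.65 to 3.01, adjusted p = 0.442).

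OR51B5 lies 62.8 kb from HS2 and stood at 19.75 and 19.02 TPM in sgGal4, 26.73 and 19.63 TPM in K, 13.78 and 15.93 TPM in L, 13.90 and 12.76 TPM in LK and 16.28 and 22.24 TPM in KL. Like OR51B4, it was below both sgGal4 libraries in L and LK, with log2 fold changes of -0.37 (adjusted p = 0.635) and -0.51 (adjusted p = 0.435) that did not pass. OR51I1, whose start is 160.8 kb from HS2, had the opposite sign in L and LK, with log2 fold changes of 0.16 and 0.45. In K both genes had positive values, with 0.23 for OR51B5, and in KL OR51B5 had -0.02. It stood at 8.82 and 11.56 TPM in sgGal4, 22.25 and 17.08 TPM in K, 10.48 and 12.40 TPM in L, 15.81 and 12.74 TPM in LK and 21.30 and 16.56 TPM in KL. The K, LK and KL libraries were above both sgGal4 libraries and the L libraries overlapped them. Its log2 fold change was 0.88 in K (95% interval 0.25 to 1.52, adjusted p = 0.158) and 0.83 in KL (adjusted p = 0.199). The sum of the 4 receptor genes was 81.7 ± 11 TPM (SD, n = 2) in sgGal4, 92.1 ± 15.4 in K, 59.8 ± 3.15 in L, 62.7 ± 11.1 in LK and 86.1 ± 5.49 in KL.

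**Figure D3:**
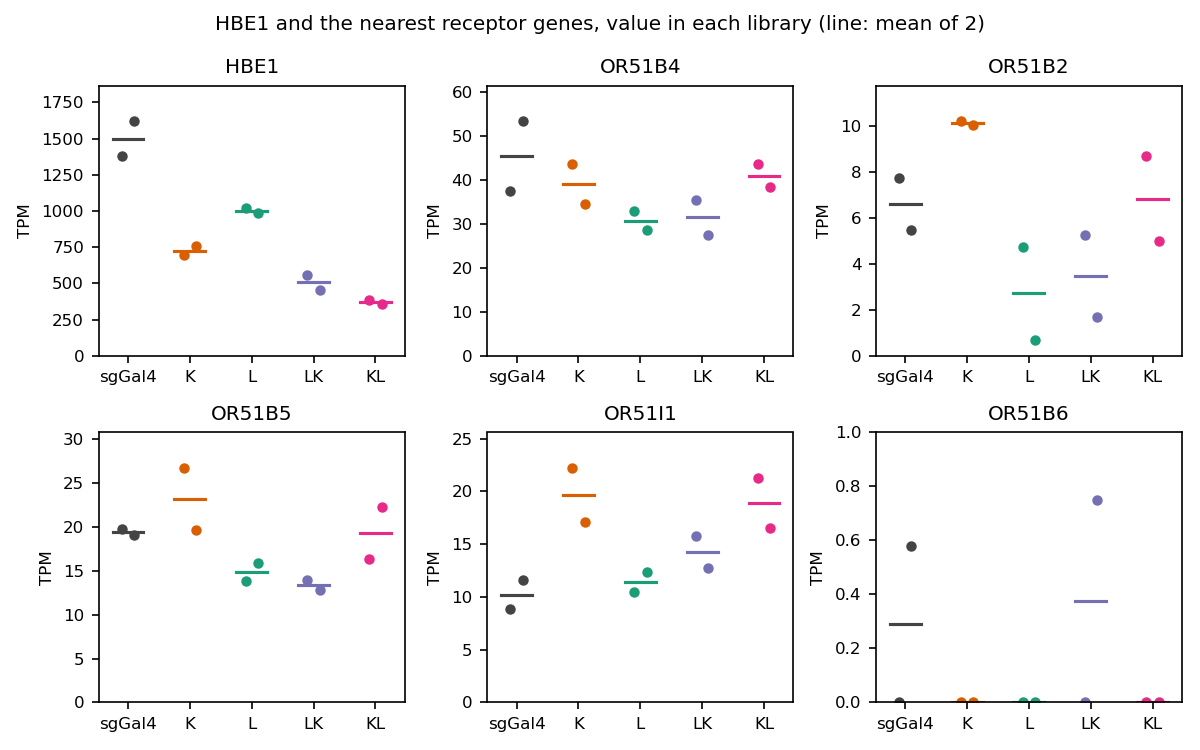
TPM of HBE1 and of 5 receptor genes in each library (points, 2 per group; line, mean of 2), each panel with its own axis from 0. HBE1 is lower in all 8 sgHS2 libraries than in sgGal4, the OR51I1 points of K, LK and KL lie above those of sgGal4, and OR51B6 is at 0 in 8 libraries.

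Because the receptors and HBE1 are on the same strand on either side of HS2, the change of each flanking gene was also compared with that of HBE1 within the same libraries, a test added after the data were seen. The difference from HBE1 passed for 20 of 22 flanking genes in K, for 20 of 22 in LK and for 22 of 22 in KL, always with the flanking gene higher. The same held for 70.2% of all other genes in K, 91.1% in LK and 96.9% in KL, so most genes did as the flanking genes did. HBE1 was already known to fall, and its values enter every one of these differences. A pass therefore does not show a change in the flanking gene. For the mean of the 4 sgHS2 groups it passed for 22 of 22 against 92.3% of all genes, and for dual against single effectors for 20 of 22 against 88.6%. In L, where the value of HBE1 was smallest in size, SMPD1 alone passed, 1 of 22 against 21.1% of all genes. For OR51B4, the change less that of HBE1 was 0.84 in K (adjusted p = 0.00744 in limma), 1.06 in LK (adjusted p = 0.000824) and 1.87 in KL (95% interval 1.35 to 2.39, adjusted p = 2e-06). In L it was 0.04 (95% interval -0.48 to 0.57, adjusted p = 0.901 in limma). OR51B4 itself had log2 fold changes of -0.20 in K, -0.53 in L, -0.50 in LK and -0.13 in KL, none past the threshold. OR51I1 had 1.92 in K, 2.01 in LK and 2.83 in KL, which all passed. OR51B2 passed in K with 1.60 and in KL with 2.02 but not in LK with 0.69 (adjusted p = 0.204). Without K replicate 1 the K count was 12 of 22, where 44.7% of all genes passed in either direction, and without sgGal4 replicate 1 it was 13 of 22 against 51.7%. The L count was 0 of 22 without L replicate 1 (11% of all genes), without L replicate 2 (2.97%) and without sgGal4 replicate 1 (7.85%).

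Measured against HBE1 in the same library, OR51B4 was 3.02% of HBE1 in sgGal4, 5.42% in K, 3.07% in L, 6.21% in LK and 11% in KL, as means of 2. For OR51I1 the shares were 0.677%, 2.73%, 1.14%, 2.81% and 5.06%. The 4 receptors together were 3.01% and 3.71% of the summed β-like globin TPM in the sgGal4 libraries and 13.1% and 12.7% in the KL libraries. Over libraries, the log2 ratio of OR51I1 to HBE1 was higher in 8 of 8 sgHS2 libraries than in both sgGal4 libraries, by a mean of 1.88. An exact permutation test, two-sided, gave p = 0.0444 (adjusted over 8 tests 0.178), the lowest p possible for 8 libraries against 2. HBE1 itself was below both sgGal4 libraries in all 8 sgHS2 libraries. In the limma test of the ratio for the mean of the 4 sgHS2 groups, 92.3% of all genes were higher. The share of all genes with such a full separation was not counted, so whether it is particular to OR51I1 was not tested. For the other receptors, the ratio was above both sgGal4 libraries in 6 sgHS2 libraries for OR51B4, 5 for OR51B2 and 7 for OR51B5. For OR51B4 the mean log2 ratio of the libraries labelled LK and KL was 1.03 above that of the libraries labelled K and L, with 3 of 4 above all of the latter (p = 0.0571 by the same exact permutation test, adjusted 0.178, with 0.0286 the lowest possible). None of the 8 tests passed after adjustment. These tests treated libraries of different effector groups as exchangeable, although the 8 sgHS2 libraries were 2 from each of 4 groups. Their p-values therefore do not measure the spread between replicates of 1 condition.

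**Figure D4:**
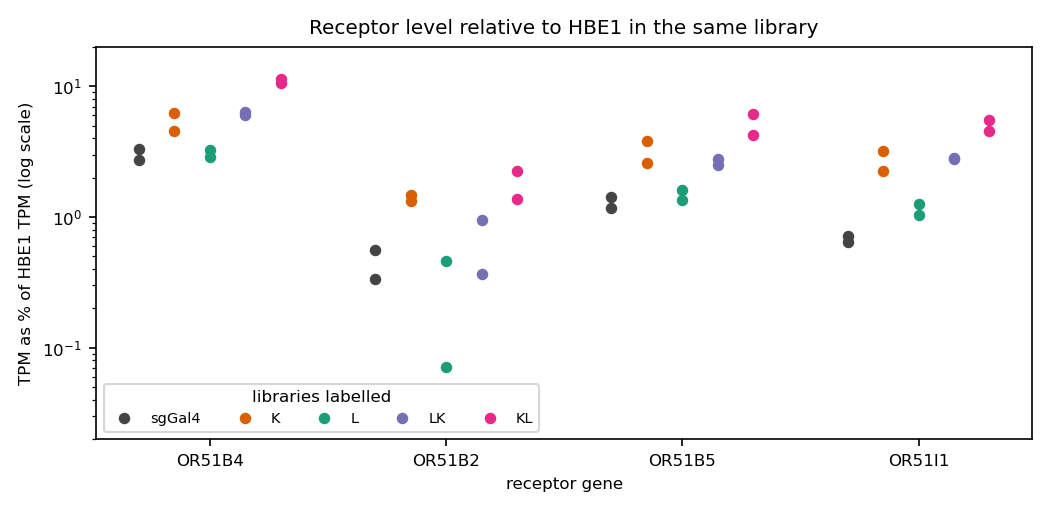
TPM of OR51B4, OR51B2, OR51B5 and OR51I1 as a percentage of HBE1 TPM in the same library (log scale), 2 points per group. KL is highest for OR51B4, OR51B5 and OR51I1, and sgGal4 and L are close together for OR51B4 at 3.02% and 3.07% on average.

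The TRIM genes were low and scattered. TRIM5, a restriction factor of retroviruses, stood at 3.05 and 4.77 TPM in sgGal4 and between 2.34 and 9.11 TPM in the sgHS2 libraries, which overlapped in all 4 groups. TRIM22, an interferon-inducible neighbour read from the opposite strand 4716 bp from the start of TRIM5, was listed at 0 in all 10 libraries. TRIM6 was at 3.41 and 2.84 TPM in sgGal4, at 2.54 and 1.54 TPM in L, at 4.99 and 5.37 TPM in LK and at 1.70 and 2.28 TPM in KL. LK lay above sgGal4, with a log2 fold change of 0.59 (adjusted p = 0.59 in limma). L and KL lay below it, with -0.46 (adjusted p = 0.721 in limma) and -0.47 (adjusted p = 0.683). TRIM21, a cytosolic antibody receptor 887.1 kb from HS2, was highest in KL with 5.96 and 3.52 TPM against 1.90 and 2.62 TPM in sgGal4 (log2 fold change 0.79, adjusted p = 0.427). TRIM68 was at 1.89 and 2.19 TPM in sgGal4 and above both in K, L and KL, with values from 0.33 to 0.86 over the 4 groups. TRIM3 ranged from 1.07 to 4.93 TPM, both in KL. Of the other 58 TRIM genes, 28 were tested and 0 passed in any comparison in limma, with 1 to 3 at an unadjusted p under 0.05.

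The genes of the lower side beyond 1 Mb varied little, with coefficients of variation from 10.6% to 15.6%, and means from 13.7 TPM in PGAP2 to 106 TPM in NUP98. NUP98, a nucleoporin, ran from 83.70 to 140.62 TPM over the 10 libraries, with log2 fold changes from 0.02 to 0.32. RRM1, the large subunit of ribonucleotide reductase, had the lowest coefficient of variation of the 22 genes at 10.6% and log2 fold changes of at most 0.15 in size. RHOG, a small GTPase, ran from 52.28 to 85.28 TPM. PGAP2, which remodels GPI anchors, was at 9.37 and 13.58 TPM in sgGal4 and above both in K and KL. STIM1, the calcium sensor of the endoplasmic reticulum, was at 20.65 and 25.14 TPM in sgGal4 and above both in K, LK and KL. Its highest log2 fold change was 0.33, in LK (adjusted p = 0.58 in limma).

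On the higher side beyond 500 kb, SMPD1, the acid sphingomyelinase of the lysosome, had the largest value. It stood at 1.46 and 5.05 TPM in sgGal4, 2.83 and 3.42 TPM in K, 8.02 and 7.68 TPM in L, 5.74 and 6.73 TPM in LK and 6.06 and 2.56 TPM in KL. L and LK were above both sgGal4 libraries, which differed widely between themselves. The log2 fold change in L was 1.20 (standard error 0.468, adjusted p = 0.294 in limma), and it was 0.55 without sgGal4 replicate 1 and 1.85 without sgGal4 replicate 2.

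FAM160A2, a part of a complex that links vesicles to dynein, was at 5.12 and 7.39 TPM in sgGal4 and below both in L, LK and KL, with log2 fold changes of -0.43, -0.54 and -0.44 that did not pass. TPP1, a lysosomal peptidase 1338.7 kb from HS2, was at 39.79 and 50.51 TPM in sgGal4 and below both in K and LK (log2 fold changes of -0.37 and -0.33). RRP8, a nucleolar methyltransferase, and ILK, the integrin-linked kinase, start 158 bp apart on opposite strands. RRP8 had log2 fold changes between -0.38 and 0.25 and ILK between -0.54 and -0.03. ARFIP2, which binds Arf and Rac GTPases, was above both sgGal4 libraries in L and LK, at 0.36 and 0.49, and DNHD1, a dynein heavy chain domain gene, had -0.79 in LK (adjusted p = 0.44). DNHD1 stood at 5.0 and 13.99 TPM in sgGal4 and 3.26 and 6.04 TPM in LK, which overlapped. The value was -0.13 without sgGal4 replicate 2, -1.45 without sgGal4 replicate 1 and -0.43 without LK replicate 1. TAF10 had log2 fold changes of at most 0.25 in size. None of these genes passed the test.

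Genes of the same neighbourhood that serve other tissues were low. HPX, the heme-binding plasma protein of the liver, was at 0.70 TPM in KL replicate 1 and at 0 in the other libraries. CCKBR, the gastrin receptor, was listed at 0 throughout. APBB1, a partner of the amyloid precursor protein, reached 0.66 TPM and DCHS1, a protocadherin, 0.12 TPM. CNGA4, a channel subunit of olfactory neurons, reached 0.21 TPM. MMP26, a matrix metalloproteinase, was at 0 in all libraries. Among 43 further listed genes in the same stretch, 38 were receptor genes with at most 0.71 TPM and 1 gene, TIMM10B, passed the filter without a call in any comparison.

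Dual effectors were compared with single effectors by their labels, although KDM1A was near the sgGal4 level in LK and KL, and both KDM1A and ZNF10 were raised in L. Of the 22 flanking genes, 0 passed in limma, where 0.0889% of all genes did, and 0 had an unadjusted p under 0.05 against 7.45%. Their median log2 difference was 0.01, the same as over all genes, and single genes ranged from -0.44 to 0.42. HBE1 differed by -0.97 in this comparison (adjusted p = 0.000237), a call lost without a mean-variance trend (adjusted p = 0.109). OR51B4 differed by 0.05 (standard error 0.172) and OR51I1 by 0.12 (standard error 0.209). In the 6 comparisons between pairs of sgHS2 groups, 0 of 22 passed each time, where 0.0395% of all genes passed for K against L, 0.00987% for K against LK, 0.168% for K against KL, 0.118% for L against LK, 0.276% for L against KL and 0.385% for LK against KL. At an unadjusted p under 0.05 the counts were 4 of 22 for K against L (8.34% of all genes), 3 for K against LK (5.18%), 1 for K against KL (9.97%), 1 for L against LK (8.15%), 2 for L against KL (9.6%) and 1 for LK against KL (9.84%). The lowest adjusted p was 0.418.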

How the data were processed

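Libraries were poly(A) selected with a directional kit per the labels, whereas the study's methods name the Ovation system. The authors aligned reads to hg19 with STAR 2.5.2b, used only those with 1 location, and ran RSEM, whose TPM per gene and library they deposited. The annotation is not given in the sources used here. The methods name a test on read counts, so limma was used on the TPM instead. From the deposited TPM, log2(TPM + 1) was fitted for 10127 genes, those whose mean over all libraries reached 1 TPM, with all 10 libraries in 1 limma fit (version 3.58.1, R 4.3.3, 5 residual degrees of freedom), moderation along a mean-variance trend, and p-values adjusted by Benjamini-Hochberg over all genes with a threshold of 0.05. Changes of low genes come out too small on this scale. Each sgHS2 group and their mean were compared with sgGal4, the dual with the single effectors, and sgHS2 groups in pairs. The change less that of HBE1 was fitted in the same way to the log2 ratio to HBE1. Exact tests and tables used Python 3.11.15, numpy 2.4.6, scipy 1.17.1 and pandas 2.3.3, and plots matplotlib 3.10.9. Positions, isoforms and sequences came from GENCODE on GRCh37 and its genome, in which 19245 of the 20535 symbols matched. FAM160A2 was matched by its newer symbol, FHIP1B. The fit was checked on simulated data.

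Every flanking gene that passed the filter could be named, and others by a count or their highest TPM, beside the β-like globin genes. The other lists were the remaining listed genes of the stretch, other TRIM genes and 32 interferon-stimulated genes. The members and lists were chosen with earlier results of these data known. Alternatives were a pseudocount of 0.1, no filter, a filter at 10 TPM, median-of-ratios scaling, quantile normalization, removal of mitochondrial genes, no trend, a replicate block, a fit of only the compared groups and each library left out. The HS2 sgRNA sequences were not used here, and the sequences of some receptor genes are not reported here.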

Additional observations from a re-analysis of the deposited data

How the results depend on the processing

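The number of flanking genes past the threshold was 0 in each of the 6 comparisons under every alternative run. Over 1860 alternative values of single flanking genes the lowest adjusted p was 0.0996, for OR51I1 in K under quantile normalization, and 135 values changed sign with neither value past the threshold. The replicate numbers did not pair the libraries, with correlations of same-numbered deviations between -0.0213 and 0.0229, and with the replicate number as a block 0 flanking genes passed and the counts over all genes were 119 in K, 69 in L, 151 in LK and 127 in KL. The number of all genes called moved far more, from 9 to 231 in K (164 as reported), 16 to 151 in L (88), 15 to 244 in LK (203), 49 to 202 in KL (138), 90 to 415 for the mean of the 4 sgHS2 groups (330) and 3 to 15 for dual against single effectors (9). Without a trend the counts were 14 in K, 22 in L, 15 in LK and 75 in KL, and without a filter 51, 37, 61 and 83. HBE1 lost its call without a trend in K (adjusted p = 0.111) and in dual against single effectors (adjusted p = 0.109), and gained one in L with a 10 TPM filter (0.0332), without mitochondrial genes (0.0219), under quantile normalization (0.0186) and without sgGal4 replicate 1 (0.0423). For the difference from HBE1 in L, 1 of 22 flanking genes passed, against 3 of 22 when only the compared groups were fitted (22.5% of all genes in either direction) and 6 of 22 under quantile normalization (30.1%). With no filter 34 flanking genes were tested, and the counts were 31 in K (74.7% of all genes), 3 in L (20.9%), 32 in LK (92.4%) and 34 in KL (97.3%). The causes of these shifts were not tested. For the mean of the 4 sgHS2 groups, a fit of only the groups compared is the fit reported. The ratio to HBE1 and the exact tests of it were added after the data were seen. Leaving out a library leaves a lone library in its group, assumed to vary like the other groups. Depth is unknown, so no detection limit can be given for genes listed at 0.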

Other observations

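Interferon-stimulated genes were read beside the TRIM genes, several of which respond to interferon. Of 32 listed genes, 14 were tested. In K against sgGal4, 2 passed in limma, where 1.62% of all genes did. IFITM2, a membrane protein that blocks virus entry, rose by 1.11 on the log2 scale (adjusted p = 0.0435), and its relative IFITM1 fell by 0.68 (adjusted p = 0.0297). In LK, BST2, which tethers budding virions, rose by 0.81 (adjusted p = 0.0354), the only 1 of 14 that passed, against 2% of all genes. For the mean of the 4 sgHS2 groups, BST2 rose by 0.66 (adjusted p = 0.0227) and IFITM2 by 0.80 (adjusted p = 0.044), 2 of 14 against 3.26% of all genes. In L, KL and dual against single effectors, 0 of 14 passed in limma, where 0.869%, 1.36% and 0.0889% of all genes did. At an unadjusted p under 0.05 the counts of 14 were 4 in K (15.6% of all genes), 4 in L (12.8%), 6 in LK (14.2%), 6 in KL (14.7%), 6 for the mean of the 4 sgHS2 groups (17.1%) and 1 for dual against single effectors (7.45%). These calls were not stable. In K the IFITM2 call was lost in 8 of 13 alternatives (highest adjusted p = 0.172) and the IFITM1 call in 6 of 13 (0.219). The BST2 call was lost in 9 of 13 in LK (0.277). For the mean of the 4 sgHS2 groups, BST2 lost its call in 4 of 18 (0.164) and IFITM2 in 12 of 18 (0.266).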
